A study of Rattus norvegicus with 4 samples.

Results

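Muscle of an exercised SPORTS rat was compared with muscle of a sedentary SPORTS rat, each measured on 1 one-colour array. These are 2 of the 4 arrays of a study of SPORTS, a hyperactive mutant rat with a Wistar background. The exercised array was of SPORTS muscle after exercise and the sedentary array of SPORTS muscle without it. The other 2 arrays were of Wistar wild-type muscle, which the study's design text calls sedentary and whose source names give no exercise state. All 4 were from male rats aged 15 weeks and used 100 ng of RNA. The labels name neither the muscle, the mutated gene nor the kind and length of exercise, and do not say whether the wild-type arrays were of separate animals. With 1 array per condition there is no replicate check and no test, so exercise, the individual rat, the site sampled and the array cannot be told apart. The difference between the wild-type arrays was measured the same way and is given as background. The titles of the wild-type arrays share their first number, unlike the SPORTS titles, so this background may hold no difference between rats.

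Each level is a log2 processed signal from which the same array's 75th percentile was subtracted, so that 0 is the level of that percentile. A difference is the exercised minus the sedentary level, and 1 on this scale is 2-fold. A gene was counted as measured if its probe was well above background on at least 2 of the 4 arrays, which held for 13326 of 26624 genes and unnamed accessions, 8477 of them with a symbol. Where a probe was not above background on 1 SPORTS array, the difference is given as a bound, "at least N-fold", against the higher of that array's lowest signal above background and the gene's own signal there. Counts of genes at least 2-fold apart use the measured values, and so include some genes whose bound is smaller or that were above background on neither SPORTS array. Where such a gene is named, this is said or its bound is given. On the exercised array 46.0% of the probes were above background and the 75th percentile of the signal was 864. The sedentary array had 50.3% and 1111, and the wild-type arrays 48.7% and 48.9% with 1096 and 1082. Spots of the same probe had a median SD of 0.04 to 0.06 on the log2 scale within each array.

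Skeletal muscle fibres fall into slow and fast types, which are told apart by the myosin heavy chain they make. Slow type I fibres use Myh7, burn fat and sugar in mitochondria and resist fatigue. Fast fibres use Myh2 (type IIa), Myh1 (IIx) or Myh4 (IIb), and the IIb fibres rely most on glycogen and glycolysis. Each type also has its own troponins, light chains, calcium pump and calcium buffers. Endurance training is known for shifts among fast types and for more mitochondrial enzymes, while muscles, and regions within a muscle, differ in their share of each type.

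Between the SPORTS arrays 1214 genes were at least 2-fold higher on the exercised one, 9.11% of those measured, and 1706 were at least 2-fold lower, 12.8%. Counts within the gene lists below are to be read beside these shares. Between the wild-type arrays 151 genes were at least 2-fold apart in either direction, 1.13%. The median absolute difference was 0.44 between the SPORTS arrays and 0.07 between the wild-type arrays. At 4-fold the counts were 319 higher and 569 lower, against 49 between the wild-type arrays, and at 32-fold they were 14 and 21, against 0. Among the 12005 genes above background on both SPORTS arrays the 2 sides were nearly even, with 1106 higher and 1034 lower. The split also turned with the scaling between arrays: higher genes made up 41.6% of those apart here, 55.1% with scaling to the median (1663 higher and 1354 lower) and 23.5% with scaling to the spike-in controls (769 and 2500). The median of all genes was 0.03, 0.23 and -0.28 under these scalings, and differences are read against that shift.

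**Figure D1:**
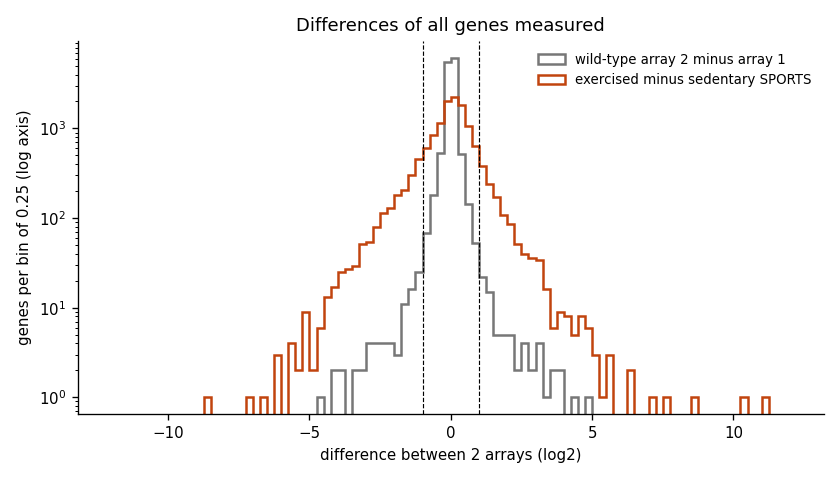
Distribution of the log2 difference between 2 arrays over the 13326 genes measured, in bins of 0.25, with a logarithmic count axis. The orange outline is exercised minus sedentary SPORTS and the grey outline wild-type array 2 minus array 1; dashed lines mark 2-fold. The SPORTS pair reaches 11.19 on the higher side, while no wild-type difference reaches 32-fold.

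The exercised array was the one that lay apart for most of these genes. Of the 1214 higher genes, 765 (63%) were at least 2-fold above both wild-type arrays on the exercised array while the sedentary array stayed within that distance. For 59 (4.86%) the sedentary array alone lay at least 2-fold below both wild-type arrays. Of the 1706 lower genes the corresponding numbers were 1061 (62.2%) and 86 (5.04%). The fast fibre genes described below departed from this in part. Of 14 at least 2-fold higher, the exercised array alone lay apart for 5 (35.7%) and the sedentary array alone for 4 (28.6%). For 3 the sedentary array lay below wild type and the exercised array above it. Of 10 slow fibre genes at least 2-fold lower, the exercised array alone lay apart for 8 (80%).

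Upstream sequences are shown for 4 fibre genes of either type, chosen because the contrast between the arrays turned on their class. Each is the 250 bases before the transcription start in RefSeq on build GRCr8, written in the direction of the gene. These upstream windows lie at chr10:52421898-52422147 (Myh4), chr10:52384662-52384911 (Myh1), chr2:192214306-192214555 (Casq2) and chr13:49781279-49781528 (Tnni1), all on the plus strand. Capitals mark matches to the TATA box (TATAAA) or to the site of MEF2, a transcription factor of muscle genes, on either strand.
Myh4: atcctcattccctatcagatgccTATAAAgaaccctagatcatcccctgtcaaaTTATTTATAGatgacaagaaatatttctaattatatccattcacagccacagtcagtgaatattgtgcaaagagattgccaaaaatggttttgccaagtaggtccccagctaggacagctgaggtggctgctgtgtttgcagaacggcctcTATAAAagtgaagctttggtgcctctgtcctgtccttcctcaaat
Myh1: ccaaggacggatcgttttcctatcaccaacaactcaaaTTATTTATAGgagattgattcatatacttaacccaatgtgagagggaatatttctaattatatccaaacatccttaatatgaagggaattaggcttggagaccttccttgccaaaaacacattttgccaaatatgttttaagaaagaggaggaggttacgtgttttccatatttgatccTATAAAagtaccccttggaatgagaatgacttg
Casq2: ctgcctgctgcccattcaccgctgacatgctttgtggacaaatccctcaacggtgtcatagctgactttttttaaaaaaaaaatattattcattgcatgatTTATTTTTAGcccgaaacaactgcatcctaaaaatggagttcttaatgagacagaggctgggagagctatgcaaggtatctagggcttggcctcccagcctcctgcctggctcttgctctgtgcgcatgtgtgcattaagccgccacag
Tnni1: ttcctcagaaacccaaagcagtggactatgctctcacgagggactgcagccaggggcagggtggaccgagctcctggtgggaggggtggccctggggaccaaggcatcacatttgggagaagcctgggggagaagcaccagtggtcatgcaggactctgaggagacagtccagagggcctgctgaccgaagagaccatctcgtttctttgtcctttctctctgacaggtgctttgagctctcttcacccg
The upstream regions of Myh4 and Myh1, neighbouring genes of the fast myosin cluster, both held the MEF2 match TTATTTATAG, at bases 196 to 187 and 212 to 203 before the start. A reverse-strand TATA match lies inside it. Both also held a forward TATA box, at bases 45 to 40 before the start of Myh4 and 33 to 28 before that of Myh1, and Myh4 held another at bases 227 to 222. Casq2, a gene of slow and cardiac muscle, held a MEF2 match and no TATA box, and Tnni1 held neither. Across the lists, 4 of 13 fast fibre promoters and 1 of 11 slow fibre promoters held a MEF2 match, against 3.0% of all 33469 promoters of this length. A TATA match was in 5 of the 13 and 1 of the 11, against 12.9% of all. E-boxes (CANNTG), which bind factors of the MyoD family, were in 10 of 13 and 9 of 11, against 65.5% of all. MCAT (CATTCC) was in 2 of 13 and 1 of 11 and the CArG box in 1 of each, against 12.1% and 1.5%. A match describes the letters in this window only.

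Fast myosin heavy chains were far higher on the exercised array. Myh4, the IIb chain, stood at 8.63 on the exercised array, -2.56 on the sedentary array and 1.03 and 1.41 on the wild-type arrays, a difference of 11.19. The 2 SPORTS arrays thus lay on either side of wild type for this gene. Myh1, the IIx chain, was at 7.92, 1.43, 5.17 and 4.29 in the same order, with a difference of 6.49. Myh2, the IIa chain, was at 5.86 against 2.65, while wild type was at 6.24 and 6.34, so here the sedentary array alone stood low. A second Myh2 probe differed by 3.48. The neonatal chain Myh8 was higher by 2.14.

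Slow and developmental chains were lower. Myh7, the slow chain, was at 6.16 on the exercised array, 8.31 on the sedentary array and 8.36 and 8.40 on the wild-type arrays. Its near-identical neighbour Myh6, the atrial chain, differed by -1.09, and signal from either gene may reach the other's probe. The embryonic chain Myh3 was at -0.09 against 5.0, with wild type at 5.08 on both arrays, and its 2 probes gave -5.09 and -5.15. Myh7b, an ancient slow-type chain, differed by -3.45. The non-muscle chain Myh10 differed by -2.18, while the smooth muscle chain Myh11 and the non-muscle chains Myh14 and Myh9 differed by 0.06, 0.33 and 0.42. In all, 4 of 12 heavy chain genes passed 2-fold on the higher side and 5 on the lower.

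The other proteins of the fast filament followed the fast myosins. Each of the 14 fast fibre genes measured passed 2-fold on the exercised side, and their median was 3.32 against 0.03 over all genes and 0.07 for the same list between the wild-type arrays. Actn3, the fast alpha-actinin of the Z-disc, was at 8.61 on the exercised array, 0.96 on the sedentary array and 1.20 and 2.38 on the wild-type arrays. Pvalb, the parvalbumin that soaks up calcium after a contraction, was at 8.19 against 0.99, with wild type at 0.33 and 1.0. Both genes were thus at or near wild type on the sedentary array and only the exercised array stood high. Troponins gave another pattern: the fast troponin T gene Tnnt3 was at 8.63 against 4.0 with wild type at 7.32 and 7.51, and the fast troponin I gene Tnni2 at 8.71 against 4.89 with wild type at 8.16 and 8.23. There it was the sedentary array that lay farther from wild type. Tnnc2, the fast troponin C gene, differed by 2.48, the Z-disc gene Myoz1 by 3.44 and the myosin light chain kinase gene Mylk2 by 2.96. The smallest differences of the list were those of the fast calcium pump Atp2a1 (1.01), the light chain Myl1 (1.03) and the calsequestrin Casq1 (1.33). The fast regulatory light chain Myl11 differed by 2.29.

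Of the 11 slow fibre genes measured, 10 passed 2-fold on the lower side, and the list median was -2.31, against -0.01 between the wild-type arrays. Myl2, the slow regulatory light chain, was at 3.80 on the exercised array, 7.80 on the sedentary array and 7.91 and 7.83 on the wild-type arrays. Tnni1, the slow troponin I, was at 4.98 against 8.38, with wild type at 8.45 and 8.38. For both, the sedentary array lay near wild type and the exercised array alone was low. Casq2 was at 1.72 against 5.08, with wild type at 4.49 and 4.50. Differences of the slow troponin C gene Tnnc1, the slow calcium pump gene Atp2a2, the light chain gene Myl3 and the tropomyosin gene Tpm3 lay between -2.45 and -1.92. Pln, whose product restrains that pump, differed by -1.23, with both wild-type arrays at the exercised level. Tnnt1, the slow troponin T, was the member short of 2-fold at -0.96, and its second probe gave -1.86.

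**Figure D2:**
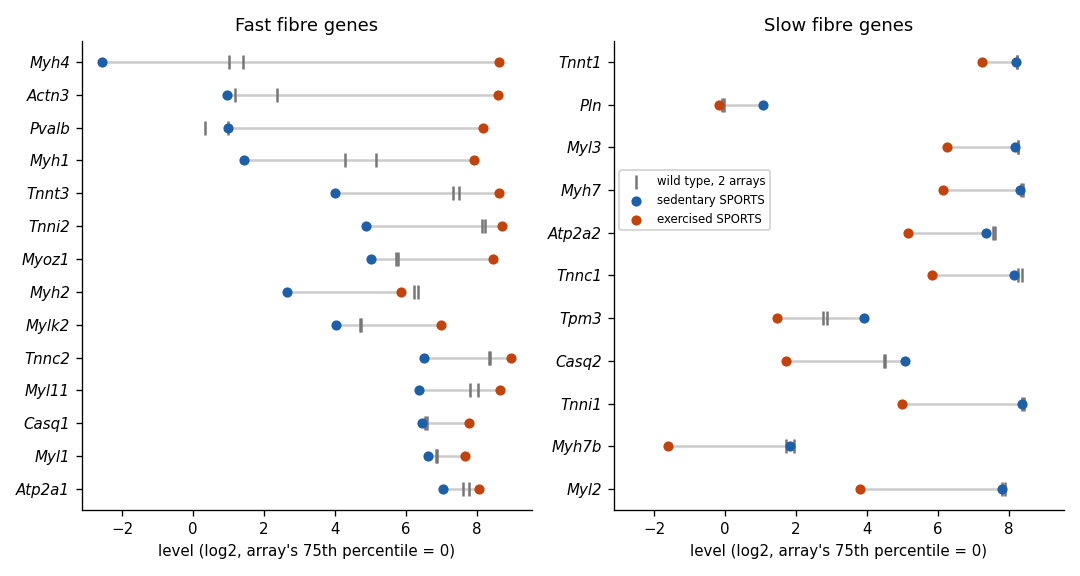
Levels (log2, 0 at the array's 75th percentile) of the 14 fast and 11 slow fibre genes on the exercised (orange) and sedentary (blue) SPORTS arrays and the 2 wild-type arrays (grey ticks); a grey line joins the SPORTS arrays, and levels compare arrays within a gene, not genes with each other. Every fast gene is higher and every slow gene lower on the exercised array; for most slow genes the sedentary array sits on the wild-type ticks.

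Light chains outside these lists split as well. Myl4, the embryonic and atrial light chain, differed by -2.70, and the non-muscle regulatory chains Myl12a and Myl12b by -1.65 and -1.07, with second probes at -0.92 and -0.69. Myl6 and Myl9, of non-muscle and smooth muscle myosin, differed by -0.14 and 0.08. Of 33 Z-disc and filament genes 12 were at least 2-fold higher (36.4%, against 9.11% of all genes) and 6 lower (18.2%, against 12.8%). Their median, 0.32, ran from -0.10 to 0.51 over the settings. Beside Actn3, the largest differences were those of Ankrd1, an ankyrin repeat protein of the titin I-band that answers to stretch, at 4.93, the M-band gene Myom2 at 4.6 and the tropomyosin gene Tpm1 at 4.32. The second probe of Tpm1 gave 0.02, so its value depends on the probe. On the lower side stood the cardiac actin gene Actc1 at -3.20, Pdlim1 at -2.84 and Tpm3. So did the stretch-responsive Ankrd2 at -1.98, Lmod2 at -1.71 and the alpha-actinin gene Actn2 at -1.21. The heart genes Tnnt2, which fetal skeletal muscle also uses, and Tnni3 were lower too. Tnnt2 was at -0.40 against 3.61 with wild type at 1.34 and 1.20, and Tnni3 was at least 2.80-fold lower. No array had the heart markers Nppa, Nppb, Myl7, Nkx2-5 or Gata4 above background.

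Regulators of fibre type differed in both directions. Maf, a large Maf factor of the kind that drives the IIb myosin gene, was at 1.59 on the exercised array, -1.85 on the sedentary array and -2.54 and -2.44 on the wild-type arrays. Sox6, which represses slow genes, was at least 4.32-fold higher. Nfatc3, of the calcineurin-NFAT pathway that answers to nerve activity, differed by 1.17. On the lower side, Rcan2, which encodes a calcineurin regulator, was at -2.28 against -0.17, and Vgll2, a cofactor of TEAD factors needed for slow genes, at -0.23 against 1.51. Of 16 measured, 4 passed 2-fold on the higher side (25.0%, against 9.11% of all genes) and 2 on the lower (12.5%, near the 12.8% of all genes). Short of 2-fold were Six4 (0.85), Mef2a (0.46), Mapk12 (0.44), Mef2d (0.31), Ppard (0.28), Hdac5 (-0.04), Nfatc4 (-0.31), Rcan1 (-0.72) and Tead1 (-0.81). The list median of 0.30 changed sign with the scaling (-0.02 to 0.49).

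Of 29 calcium handling genes 8 passed 2-fold on the higher side (27.6%, against 9.11% of all genes) and 4 on the lower (13.8%, near the 12.8% of all genes), and their median was 0.77. The lowest difference among genes with a symbol and above background on both SPORTS arrays was that of Sln, encoding sarcolipin, a small inhibitor of the calcium pump. It was at -0.30 on the exercised array, 5.91 on the sedentary array and 5.29 and 4.98 on the wild-type arrays, a difference of -6.20. Together with Pln and Casq2 this placed both pump inhibitors and the slow calsequestrin on the lower side. The other genes at least 2-fold higher were Camk2d (1.73), the calcium channel subunits Cacng6 (1.60), Cacna2d1 (1.53) and Cacna1s (1.33), and the store-operated channel gene Orai1 (1.04).

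Pumps and channels of the surface membrane showed single large differences. Atp1b2, a beta subunit of the sodium-potassium pump, was at 6.64 on the exercised array, 1.03 on the sedentary array and 1.07 and 1.01 on the wild-type arrays, so that only the exercised array differed. Slc4a3, a chloride-bicarbonate exchanger, was the reverse, at -1.34 against 4.69, 4.74 and 4.85. Of 18 pump and ion transporter genes 3 were at least 2-fold higher (16.7%, against 9.11% of all) and 7 lower (38.9%, against 12.8%). Among them were the muscle chloride channel gene Clcn1 at 2.18 and the sodium channel subunit Scn3b at -2.23. The pump regulators Fxyd6 and Fxyd2 differed by -2.33 and -1.91. Among 21 potassium channel genes 3 were higher (14.3%, against 9.11% of all genes) and 8 lower (38.1%, against 12.8%). They were led by Kcnj12 (2.51), Kcnc4 (2.23) and Kcnma1 (-2.50), while Kcnk2 was at least 2.85-fold lower. Second probes gave -0.64 for Kcnma1 and 0.56 for Kcnq1, whose main probe gave -1.75. The water channel Aqp4, typical of fast fibres, was at 0.44 against -3.69 with wild type at -0.03 and 0.18, and Aqp7, which carries glycerol, at -2.34 against 2.23 with wild type at 2.17 and 1.98. Car3, the carbonic anhydrase of slow fibres, differed by -3.33, and Car8 was at least 2.84-fold lower. Car14 differed by 1.08 and Car11 by 1.0, while Car2, Aqp1, Car1 and Car4 stayed within 2-fold (0.77, 0.75, 0.21 and -0.26).

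Genes of glycogen metabolism and glycolysis were higher more often than lower. The glycogen list, which spans synthesis and breakdown, had 10 of 18 members past 2-fold on the higher side and 2 on the lower (median 1.29). Glycolysis had 12 of 21 on the higher side and 0 on the lower (median 1.26). The 12 include Pfkl, whose probes disagreed, as given below, and Fbp2 and Gpd1, which are not steps of sugar breakdown. Between the wild-type arrays these medians were 0.04 and 0.03, with no member 2-fold apart. Phosphorylase kinase, which switches on glycogen breakdown, was higher in 3 subunits: Phka1 by 3.11, Phkg1 by 2.64 and Phkb at least 3.84-fold. Pgm1, which passes the freed glucose phosphate on to glycolysis, was at 5.34 on the exercised array, 2.74 on the sedentary array and 2.87 and 2.84 on the wild-type arrays. The branching enzyme Gbe1 and the brain phosphorylase Pygb, on the lower side, differed by -1.82 and at least 2.11-fold.

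Within the glycolysis list, Fbp2 encodes the muscle fructose bisphosphatase, which reverses a step of glycolysis. It was at 6.69 on the exercised array, 1.70 on the sedentary array and 1.07 and 1.42 on the wild-type arrays. Gpd1, which makes glycerol phosphate from a glycolytic intermediate, was at 6.56 against 2.42 with wild type at 2.60 and 2.55. Pkm, the muscle pyruvate kinase, was at 5.91 against 3.29 with wild type at 3.48 and 3.54, and its second probe gave 3.09 beside the 2.62 of the first. For these enzymes the sedentary array stayed near wild type and the exercised array alone was high. Pfkl, the liver phosphofructokinase, gave 5.05 by one probe and -0.20 by the other, so no direction is given for it. Hk2, the hexokinase that answers to insulin and exercise, differed by 0.07, with a sign that changed with the scaling, and the glucose transporter gene Slc2a4 by 0.33.

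At the end of glycolysis the lactate genes parted. Ldha, the form that favours lactate production, was at 8.45 on the exercised array, 6.17 on the sedentary array and 6.63 and 6.80 on the wild-type arrays. Ldhb, the form of oxidative tissue, was at 4.42 against 7.48 with wild type at 7.33 and 7.29. The lactate exporter gene Slc16a3 was at 6.36 against 2.43 with wild type at 2.98 and 2.94. Slc16a1, which carries lactate into oxidative fibres, differed by -1.13, and Slc16a7 was at least 2.26-fold lower. The kinases that shut pyruvate dehydrogenase also split, with Pdk4 at 0.72 against -1.51 and Pdk1 at -1.12 against 0.80, while the phosphatase gene Pdp2 differed by -1.83. Over all 20 genes of this list 3 were at least 2-fold higher (15.0%, against 9.11% of all genes) and 5 lower (25.0%, against 12.8%).

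Energy sensing showed 1 gene far apart. Prkag3, the gamma 3 subunit of AMP-activated kinase found in fast fibres, was at 3.09 on the exercised array, -1.42 on the sedentary array and -0.83 and -0.74 on the wild-type arrays, and its 2 probes gave 4.51 and 4.23. Prkab2, its beta 2 partner, differed by 2.20 and the catalytic subunit gene Prkaa2 by 1.35. Among 27 insulin signalling genes, 6 were at least 2-fold higher (22.2%, against 9.11% of all genes) and 1 lower (3.7%, against 12.8%). The other 3 higher genes were Eif4ebp1 (1.42), Prkag2 (1.26) and Irs1 (1.25), and the lower was Akt1 (-1.09). Of the kinases that buffer ATP, the adenylate kinase gene Ak1 and the AMP deaminase gene Ampd1 differed by 1.71 and 1.65, Ampd3 by -2.19 and Ckb by -1.17. The muscle creatine kinase genes Ckm and Ckmt2 differed by 0.76 and -0.21. Ak3, Ampd2 and Nt5e lay between -0.38 and -0.13.

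Genes of fat use leaned the other way. Of 34 fatty acid oxidation genes 11 passed 2-fold on the lower side and 2 on the higher. The median was -0.69, against 0.02 between the wild-type arrays. The ketone enzyme Bdh1 was at -3.21 on the exercised array, -0.43 on the sedentary array and -1.23 and -1.51 on the wild-type arrays. Decr1, which handles unsaturated fatty acids, was at 2.65 against 4.44 with wild type at 3.92 and 3.87, and Acot1 at least 1.13-fold lower. The 2 exceptions were the uncoupling protein gene Ucp3, at 4.78 against 1.54 with wild type at 2.36 and 2.56, and the carnitine transporter gene Slc22a5, at least 2.01-fold higher. Among 17 uptake genes Fabp3 differed by -2.13, the lipoprotein lipase gene Lpl by -2.11 and the transporter gene Slc27a1 by -1.68, while the acyl-CoA synthetases Acsl4, Acsl3 and Acsl6 differed by 1.90, 1.42 and 1.06. Among 18 genes of triglycerides and lipid droplets 6 were lower (33.3%, against 12.8% of all genes) and 3 higher (16.7%, against 9.11%). Cidea, a droplet protein, was at -0.27 against 3.84 with wild type at 2.76 on both arrays, and its second probe gave -4.30. G0s2, an inhibitor of the lipase Pnpla2, differed by -2.47 and Mogat1 was at least 3.34-fold lower. Higher members were Lpin1, at least 7.25-fold, Pnpla7 (2.32) and Angptl4 (1.76).

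Fatty acid synthesis genes held 3 of 10 at least 2-fold lower, namely Fads1 (at least 1.69-fold by its bound), Fasn (-1.76) and Scd2 (-1.26), and none higher. Thrsp, Elovl1, Acly, Acss2, Mlxipl and Acacb lay between -0.70 and 0.12, and Me1 differed by 0.80.

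The mitochondrial core differed little by comparison. None of 68 respiratory chain genes was at least 2-fold apart by the brightest probe, against 21.9% of all genes measured. Their median was 0.03 and their range -1.0 to 0.58. The extremes were Cox8a (-1.0), Uqcrq (-0.79), Cox6a1 (-0.70) and Ndufv3 (0.58), and second probes gave -2.57 for Ndufv3 and 1.34 for Uqcrb. Of 20 tricarboxylic acid cycle genes only Idh3a passed 2-fold, at 2.88 on the exercised array, 1.15 on the sedentary array and 1.44 and 1.48 on the wild-type arrays. Mdh1, Idh2 and Sdhb followed at -0.88, -0.68 and -0.66. Among 22 genes of mitochondrial biogenesis the deacetylase gene Sirt3 alone passed, at -1.42, and Ppargc1a, a coactivator known to respond to endurance exercise, differed by 0.30. The direction of Ppargc1a and of the medians of these 3 lists changed with the scaling between arrays.

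**Figure D3:**
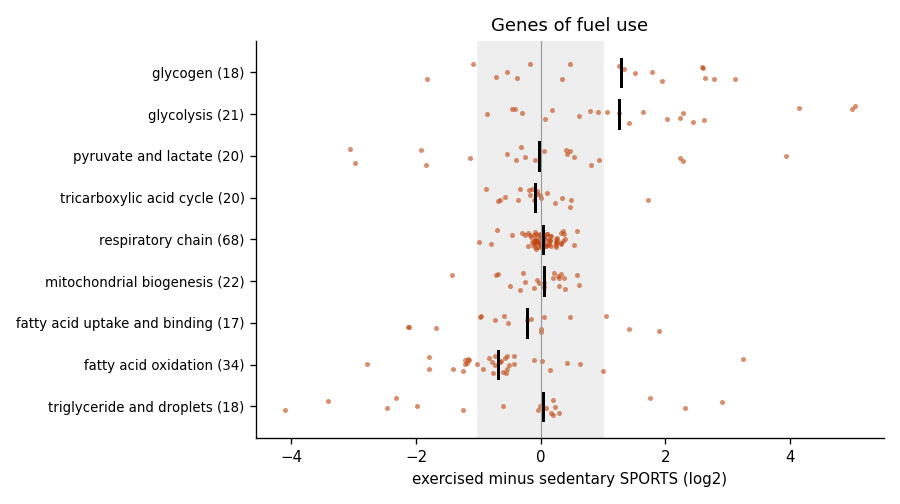
Exercised minus sedentary difference (log2) of each gene measured in 9 lists of fuel use; each point is 1 gene, the black bar the list median, the number in brackets the genes measured and the grey band the range within 2-fold. Glycogen and glycolysis lie to the right with medians of 1.29 and 1.26, fatty acid oxidation to the left with -0.69, and the 68 respiratory chain genes stay within the band.

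Genes known to respond within hours of a bout of exercise were higher more often than lower. Of 30 measured 10 passed 2-fold on the higher side, against 9.11% of all genes, and 1 on the lower, Hmox1 at -1.15. The list median was 0.34. Ankrd1 was at 5.43 on the exercised array, 0.50 on the sedentary array and 0.87 and 0.84 on the wild-type arrays. The nuclear receptor gene Nr4a1 was at 3.82 against 1.52, with wild type at 1.90 and 2.17. Ucp3 and Pdk4, given above, complete the 4 largest of the list. Il6, Lif and Thbs1 were not above background on any array. Vegfa, the endothelial growth factor induced by exercise, differed by -0.61 by its brightest probe, which stayed below 0 under every scaling tried. The scalings were not tried on its other probes, which gave -0.53, -0.15 and -0.07. Vegfb was not above background on either SPORTS array. Immediate early genes, some of them shared with that list, held 5 of 23 higher (21.7%, against 9.11% of all genes) and 3 lower (13.0%, near the 12.8% of all genes), and their median of 0.00 ran from -0.31 to 0.20 over the scalings. The stress factor Atf3 was at 3.39 against 1.49 with wild type at 0.97 and 1.29. In contrast Klf2, a factor of vessel walls that answers to flow, was at -3.07 against -0.78, and Klf4 at -0.31 against 1.62. Of 22 heat shock genes none was 2-fold higher and 3 were lower (13.6%, near the 12.8% of all genes), the largest being Hspa2 (-1.78), Hspb7 (-1.21), Hspb3 (-1.0) and Hspb6 (-0.97).

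Clock genes cycle over the day. Of 15 measured 5 were at least 2-fold higher (33.3%, against 9.11% of all genes) and 1 lower (6.7%, against 12.8%). Per3 was at -0.13 on the exercised array, -3.61 on the sedentary array and -2.31 and -2.42 on the wild-type arrays. Its second probe gave -1.32 and was not above background on the exercised array. Nfil3 was at 2.34 against 0.37 with wild type at -1.64 and -1.42, and Bmal1 at 1.94 against 0.92 with wild type at -2.04 and -2.39, so both SPORTS arrays were above wild type for these genes. Nr1d1 and Bhlhe40 differed by 1.34 and 1.27, and Dbp, a clock output gene, by -1.11 with both SPORTS arrays below wild type. The other 9 members, Cry1, Clock, Ciart, Tef, Per2, Nr1d2, Csnk1e, Npas2 and Cry2, lay between -0.84 and 0.61, with Ciart above background on neither SPORTS array and Cry2 and Nr1d2 on the sedentary one alone. The labels give no hour of sampling, and its part in these values was not tested.

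Secreted factors of muscle were lower more often than higher, 7 against 4 of 14, with a median of -0.99 that reached 0.18 with no filter on dim genes. The 2 highest were Mss51 and Il15. Mss51, grouped here though it encodes a muscle mitochondrial protein, was at 5.80 on the exercised array, -2.74 on the sedentary array and -2.82 and -2.10 on the wild-type arrays, a difference of 8.54. Il15, a cytokine abundant in muscle, was at 1.54 against -2.10 with wild type at -1.94 and -1.70. Both were near wild type on the sedentary array. Ccl2 differed by 1.12. Apln, Metrnl, Fstl1, Igf2, Dcn, Igf1 and Fst differed by -2.71, -2.07, -1.93, -1.39, -1.30, -1.15 and -1.07, and Ctsb and Sparc by -0.91 and -0.89. Mstn, the growth inhibitor myostatin, was not above background on any array.

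Of 27 genes of muscle breakdown 7 were at least 2-fold higher (25.9%, against 9.11% of all genes) and none lower (against 12.8%). Their median was 0.59. They included the ubiquitin ligase genes Trim63, at 2.20 on the exercised array, 0.41 on the sedentary array and 0.81 and 0.74 on the wild-type arrays, and Fbxo32, at 1.42 against -0.03. Fbxo31 and Gadd45a differed by 1.81 and 1.42. Of 37 proteasome genes 1 passed 2-fold, the activator gene Psme4 at 1.52, followed by Psma3 (0.91), Psmd7 (0.79) and Psmd4 (0.75), with a list median of 0.29 that changed sign with the scaling. Antioxidant genes held 7 of 35 lower and 2 higher. The glutathione transferases parted, with Gstm2 at 3.50, Gsta4 at -3.22 and Gsta1 at -3.01, and the selenoprotein gene Selenow differed by 2.15. In amino acid metabolism the glutamine synthetase gene Glul was at 3.92 against 0.86 with wild type at 1.11 and 1.05, Slc38a4 differed by 1.77, Slc38a1 was at least 5.16-fold lower, and the polyamine gene Odc1 and the transaminase gene Bcat1 differed by -1.29 and -1.1. Maoa, encoding monoamine oxidase A, was at 0.23 on the exercised array, -0.43 on the sedentary array and -0.54 on both wild-type arrays, a difference of 0.66. Of 13 monoamine genes 3 were at least 2-fold higher (23.1%, against 9.11% of all genes) and 1 was lower (7.7%, against 12.8%). The higher were Ddc (1.79), Adra2b (1.23) and Maob (1.06). Htr2b, Adra1d, Pnmt, Slc22a3, Gnas, Th and Slc6a2, lay between -0.89 and 0.62, with Htr2b and Slc22a3 at background on the exercised array.

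At the neuromuscular junction 9 of 16 genes passed 2-fold on the lower side and 2 on the higher. The median was -1.37, against -0.14 between the wild-type arrays. The junction clusters acetylcholine receptors under the nerve ending, and fetal or denervated fibres make the gamma subunit. Chrng, that subunit, was above background on the sedentary and not on the exercised array and was at least 15.1-fold lower. Chrnd, the delta subunit, was at -2.04 on the exercised array, 1.85 on the sedentary array and 1.74 and 1.68 on the wild-type arrays. Chrna1, the alpha subunit, was at -0.87 against 1.76 with wild type at 1.03 and 0.61, while the adult epsilon subunit Chrne and the beta subunit Chrnb1 differed by -0.64 and 0.81. Colq, which anchors acetylcholinesterase, was at least 13.2-fold lower, whereas the esterase gene Ache itself was at 1.27 against -1.08. Ncam1 was at least 2.20-fold lower. Dok7, Etv5, Erbb2 and Prkar1a differed by -2.18, -1.52, -1.38 and -1.36, and the sodium channel gene Scn4a by 1.61. Agrn and Rapsn stayed within 2-fold, and Lrp4 was above background on neither SPORTS array.

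**Figure D4:**
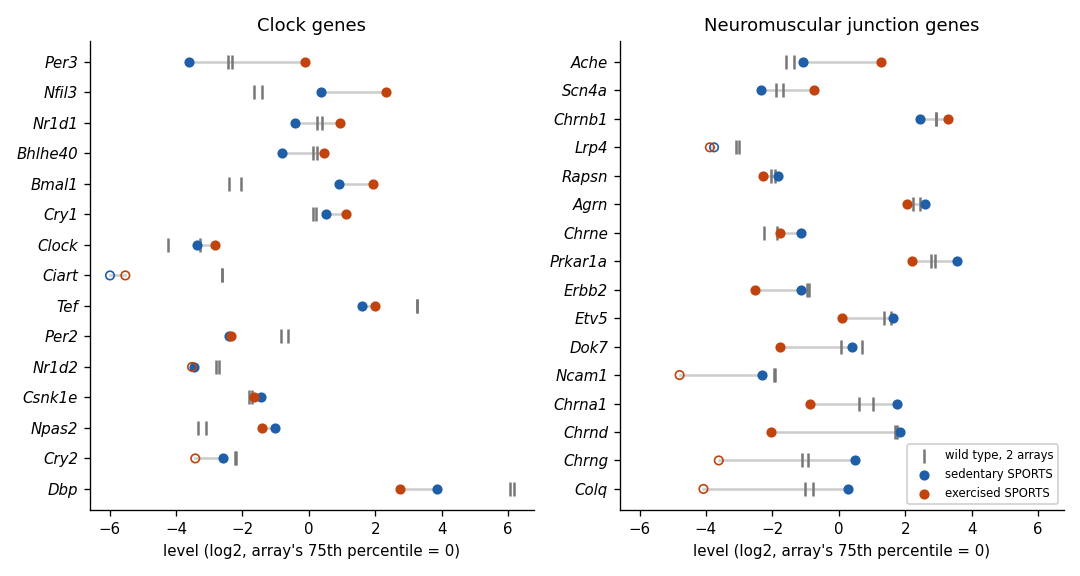
Levels (log2, 0 at the array's 75th percentile) of 15 clock and 16 neuromuscular junction genes on the exercised (orange) and sedentary (blue) SPORTS arrays and the 2 wild-type arrays (grey ticks); an open circle is a value not well above background. Clock genes such as Bmal1 and Dbp have both SPORTS arrays on 1 side of wild type, while the receptor genes Chrng, Chrnd and Chrna1 are low on the exercised array.

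Myogenic and satellite cell genes went both ways, 3 of 15 higher and 5 lower. Myod1, the factor of fast muscle, was at 1.96 on the exercised array, 0.14 on the sedentary array and 1.15 and 1.21 on the wild-type arrays. Myog, which is higher in slow and in denervated muscle, was at 1.17 against 2.94 with wild type at 2.42 and 2.44. Cdh15 and Acvr2b differed by 2.66 and 1.34, Id1, Vcam1 and Itga7 by -2.02, -1.21 and -1.08, and Heyl was at least 1.1-fold lower. Id2, Sdc4, Myf5, Sdc3, Cav3, Pax3 and Myf6 lay between -0.89 and 0.40.

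Homeobox and T-box genes, some of which keep the pattern of the body region in adult muscle, were at least 2-fold higher for 3 of 15 measured and lower for 4. Emx2 was at -2.63 on the exercised array, 0.42 on the sedentary array and 0.66 and 0.83 on the wild-type arrays. Hoxd9 was at 2.78 against 1.16 with wild type at 1.31 and 1.36, Tbx1 at 3.37 against 1.84 with wild type at 2.57 and 2.61, and Irx5 at 0.19 against -1.24. Meox1 was above background on neither SPORTS array. The hindlimb gene Pitx1 differed by -0.22 and was above background on both SPORTS arrays, and the limb genes Tbx4 and Tbx5 were at background on every array. Tbx3, Meox2, Hoxa11, Hoxb7, Meis1, Lbx1 and Hoxa7, lay between -0.76 and 0.73. These values are given because the labels do not name the muscle, and their part in the contrast between fibre genes was not tested.

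Genes that respond to stretch through YAP and its partners did not share a direction. Besides Ankrd1, the coactivator gene Wwtr1 differed by 1.78, while the matrix factor gene Ccn2 was at -0.86 on the exercised array, 2.33 on the sedentary array and 2.10 and 1.97 on the wild-type arrays. The tissue factor gene F3 and Ankrd2 differed by -2.26 and -1.98. Tead1, Ccn1, Lats2, Ajuba, Tgfb2, Crim1, Csrp3 and Piezo1 lay between -0.81 and 0.55.

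Genes of cells other than muscle fibres were lower for several cell types. In tissue RNA, fewer cells of a type and less RNA per cell cannot be told apart. Each of the 11 fibroblast markers measured passed 2-fold on the lower side. Their median was -1.57, against -0.15 between the wild-type arrays, and their summed level 6.82 on the exercised array, 8.19 on the sedentary array and 8.54 and 8.51 on the wild-type arrays. Lum was at -2.80 against 0.45 with wild type at 0.36 and 0.07, followed by Pi16 (-1.90), Mfap5 (-1.73), Pdgfra (-1.72), Col1a1 (-1.57), Fbn1 (-1.51), Col3a1 (-1.48), Col1a2 (-1.30), Dcn (-1.30) and Gsn (-1.16), and Dpp4 was at least 1.66-fold lower. Of 12 collagen genes 5 were lower and none higher, led by Col14a1 (-2.25) and Col5a1 (-1.58). The basement membrane gene Col4a1 differed by -0.09 with a second probe at -1.18. Col5a3, Col18a1, Col6a2, Col8a1 and Col9a1 lay between -0.94 and -0.33, and Col2a1 was above background on neither SPORTS array. Col7a1, outside the list, was among the highest genes of the whole array at 1.44 against -3.54.

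Tendon markers gave the lowest median of any list, -2.71, with all 10 at least 2-fold lower by their measured values. Their summed level was 3.78 on the exercised array, 5.74 on the sedentary array and 6.68 and 6.55 on the wild-type arrays. Comp, a cartilage and tendon matrix protein, was at least 42.1-fold lower and Chad, chondroadherin, at least 19.1-fold. Tnmd, the defining tenomodulin gene, was at least 8.78-fold lower, Kera at least 5.46-fold and Cilp2 at least 1.5-fold. Fmod was at 1.72 against 4.22 with wild type at 5.99 and 5.87, so the sedentary array was itself below wild type. Cilp, Prg4 and the tendon factor Scx differed by -2.67, -1.62 and -1.34, and Tnc was above background on neither SPORTS array.

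Immune markers were lower as well. Of 15 macrophage and monocyte markers 13 passed 2-fold on the lower side and none on the higher. Their median was -2.34, and their summed level was 4.62 on the exercised array, 6.76 on the sedentary array and 6.12 and 5.60 on the wild-type arrays. Between the wild-type arrays this list differed by -0.50, more than most lists did, with no member 2-fold apart. Adgre1, the F4/80 antigen, was at least 4.41-fold lower and the receptor gene Csf1r at least 5.07-fold, with a second Csf1r probe at -0.84. The scavenger receptor gene Cd163 was at -1.82 against 0.72 with wild type at -0.25 and -0.69. Ctss, Cd68, C1qa, C1qc, Lyz2, Cd74, Lyve1, C1qb, Aif1 and Cd14 lay between -2.88 and -1.47. Cx3cr1 differed by 0.25. All 7 genes of class II antigen presentation measured were lower, with a median of -2.42 against -0.58 between the wild-type arrays: beside Ctss and Cd74 these were RT1-Bb (-2.60), RT1-Db1 (-2.51), RT1-Da (-2.42), RT1-DMa (-1.5) and RT1-DMb (-1.26), which are related genes whose probes may share signal. Mast cell markers were lower for all 6 measured, with Cma1 at -1.45 against 0.90, Cpa3 at least 3.87-fold lower and Tpsb2 at least 2.52-fold. Tpsab1 differed by -1.63, Gata2 was at least 2.02-fold lower and Hdc at least 1.03-fold. The lymphocyte genes Ptprc and Cd4 were at least 4.46-fold and 1.67-fold lower and Nkg7 at least 1.28-fold, and Cd3d differed by -0.04, while Cd3e and Cd8a were not above background on any array. None of the 3 neutrophil genes measured was 2-fold apart and above background: S100a9 differed by 0.95, Lcn2 by -0.19 and Cxcr2 was above background on neither SPORTS array. Interferon-induced genes held 5 of 26 lower (19.2%, against 12.8% of all genes) and none higher (against 9.11%), with a median of -0.50. Among them were Usp18 (-1.81), Isg20 (-1.33) and Ifi44 (-1.17).

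Markers of nerve sheath and fat were lower in part, those of vessels went both ways, and none of the red cell genes was lower. Among 12 Schwann cell and nerve genes 7 were lower and 1 higher, with S100b at -2.27 against -0.14, Pmp22, Cnp and Mbp at -1.60, -1.51 and -1.25, and Gap43 at least 5.54-fold lower. The myelin gene Mag differed by 1.54 and Sox10 by -0.39. Prx was at least 2.04-fold lower and Stmn2 at least 1.74-fold, and Nefm and Nefh were above background on neither SPORTS array. Of 8 adipocyte markers 5 were lower: Cidea, Cfd (-2.37), Adipoq (-2.22), Pparg (-1.57) and Retn (-1.35). Thrsp differed by -0.70, Fabp4 stayed within 2-fold, and Lipe was above background on neither SPORTS array. Of 13 endothelial markers 2 were higher and 2 lower, 15.4% each, against 9.11% and 12.8% of all genes. The higher were Cldn5 (1.39) and Cd300lg, which was above background on neither SPORTS array, and the lower Cdh5 (-2.04) and Emcn (-1.0). Pecam1 differed by -0.08, and the list median of -0.08 changed sign with the scaling. Erg, Sox18, Flt1, Gpihbp1, Esam, Eng, Kdr and Tie1 lay between -0.63 and 0.97. Of 11 smooth muscle and pericyte markers Notch3 was higher at 1.08 and Smtn lower at -1.48. Each is 9.1% of the list, near the 9.11% higher and below the 12.8% lower of all genes. The others, Myh11, Acta2, Tagln, Des, Pdgfrb, Rgs5, Kcnj8, Abcc9 and Cspg4, lay between -0.65 and 0.40. None of 6 red cell genes was 2-fold apart, with differences of 0.32 to 0.77 for Hba-a1, Alas2, Hbb-b1, Hbb, Ahsp and Hba-a3; the globin genes are near copies whose probes may share signal. Liver and skin markers were barely present: of 8 liver genes on the array only Tf was measured, at -2.68, and Krt5, Krt14 and Krt1 of skin were not above background on any array. Of 3 cartilage and bone genes measured Spp1 differed by -1.48, Alpl was at least 1.16-fold lower and Col2a1 was at background. On the exercised and sedentary arrays the summed levels were 12.06 and 9.23 for the fast fibre list and 8.80 and 10.94 for the slow. Whether the cell type markers or the site sampled bear on the fibre and fuel genes was not tested. Neither was the part of the lower share of probes above background on the exercised array.

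**Figure D5:**
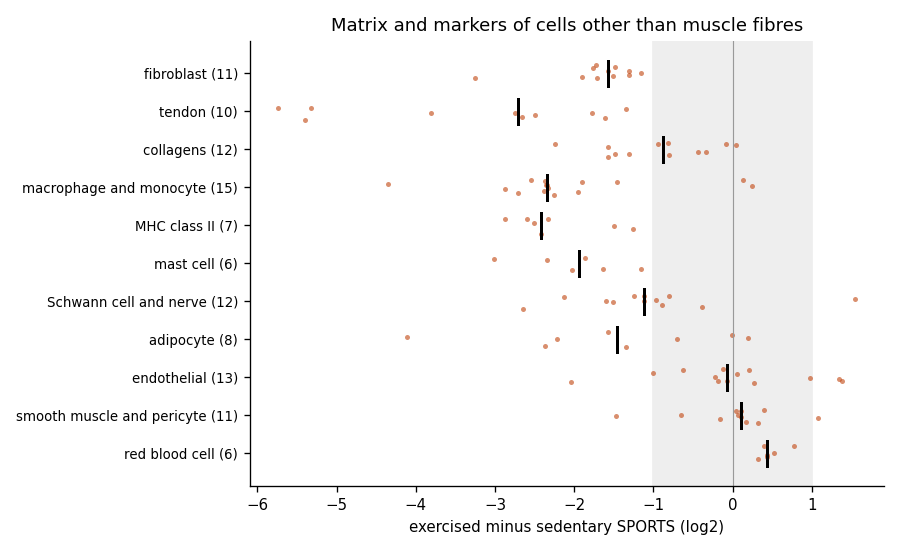
Exercised minus sedentary difference (log2) of each gene measured in 11 lists of matrix, immune, nerve, fat, vessel and blood genes; each point is 1 gene, the black bar the list median, the number in brackets the genes measured and the grey band the range within 2-fold. Tendon, class II, macrophage, mast cell and fibroblast genes lie to the left, with medians of -2.71, -2.42, -2.34, -1.95 and -1.57, and the medians of endothelial, smooth muscle and red cell genes lie within the band.

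The genes farthest apart included several outside these groups. On the higher side, the surface glycoprotein gene Cd24 was at 5.73 on the exercised array, -0.66 on the sedentary array and 0.22 and 0.04 on the wild-type arrays. The lymphotoxin beta gene Ltb was at 2.71 against -2.45 with wild type at -2.68 and -2.83. The adaptor gene Spata2, the copine gene Cpne5 and the olfactory receptor gene Or10g9b differed by 4.96, 4.8 and 4.75. With the sedentary array at background, Lingo4 was at least 36.7-fold higher, Tppp2 at least 17.9-fold, Sfxn5 at least 16.5-fold, Ifna5 at least 12.3-fold and Hoga1 at least 9.30-fold. On the lower side, Crym, a thyroid hormone binding protein, was at -0.37 against 3.94 with wild type at 4.23 and 4.25. The complement gene Cfi was at -2.78 against 1.49 with wild type at -0.33 and -0.18, so the SPORTS arrays lay on either side of wild type. Ceacam16, the inositol transporter gene Slc2a13, the Wnt receptor gene Fzd9, the LIM gene Fhl2 and Tceal7 differed by -4.36, -4.29, -3.90, -3.82 and -3.64. With the exercised array at background, the cytidine deaminase gene Cda was at least 54.9-fold lower, Epn3 at least 36.3-fold and the Wnt agonist gene Rspo3 at least 26.9-fold. Most of these genes have 1 probe. Over all genes with a second probe above background on both SPORTS arrays, 172 second probes belonged to genes at least 2-fold apart; 159 lay on the same side and 118 were also at least 2-fold apart.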

How the data were processed

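RNA from skeletal muscle was measured on 4 one-colour Agilent arrays of 1 slide. Per the file headers, scans were read with Agilent Feature Extraction 10.7.1.1, and the signal analysed was the deposited processed intensity, background-subtracted and detrended within each array and not scaled between arrays. The median spot and background signals, also deposited intensity values, served for an alternative background correction. A value table by the authors, on a log2 scale, covers these arrays too. Its differences followed those of the processed signal with r = 1 over 30015 probes and a median offset of -0.0032 to -0.0002 from values scaled to the 75th percentile, and each probe was centred on its median. Its column medians were 0.02 and -0.02 for wild type, 0.17 for exercised and -0.15 for sedentary SPORTS, and the direction is that of the arrays.

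Control spots and outlier spots were left out, spots of a probe averaged, and 352 of 30367 probes dropped. Of the probes used, 59.4% matched 1 symbol of a RefSeq table of GRCr8 by accession. The probe with the highest mean stood for a gene, and no spot was saturated. The array's design is older than that build. Computation used Python 3.11.15, numpy 2.4.6 and, for normexp, limma 3.58.1. The steps were tested on simulated data. The number of arrays, 1 per condition, limits the precision, and no test was run.

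The 54 gene lists and the naming rule were chosen with earlier results of these data known. Named were the 15 highest and 15 lowest genes, 5 bounds per side, the 4 largest of each list with members at least 2-fold the other way, all members of short lists, the contractile and regulator lists, and 10 genes of exercise or of this strain. Unnamed accessions and LOC entries were counted and not named. Some genes that the rule names are not reported here. Alternatives covered the scaling, background correction, value table, filter, floor, probe choice and each wild-type array left out. Scaling to the spike-in controls was added after seeing the data.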

Additional observations from a re-analysis of the deposited data

How the results depend on the processing

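The limits are 1 array per condition and dim genes: the lower count rests partly on genes near background. Under 13 alternatives the higher count of 1214 was 2237 with no filter on dim genes and 769 with spike-in scaling. The lower count of 1706 was 1091 with normexp, 1027 with genes above background on all 4 arrays, 1034 with genes above background on both SPORTS arrays and 2650 with no filter. The wild-type count of 151 was 67, 36, 46 and 1203 in the same order, 230 with genes above background on at least 1 SPORTS array and 93 with a floor on dim values. Of 52 lists with at least 3 genes measured, 15 had a median at least 2-fold from 0, and 9 did with no filter, where the medians of lymphocyte (0.33), heart (0.40) and cartilage and bone genes (0.36) turned to the other side. Leaving out either wild-type array, which acts only through the filter, gave 1168 to 1176 higher and 1612 to 1642 lower genes. No median of the fast fibre, slow fibre, glycolysis, glycogen, fatty acid oxidation, tendon, fibroblast or macrophage list changed sign. Of 52 list medians 23 changed sign under some setting. No paired analysis was possible because each SPORTS condition has 1 array and the result comes from no test.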
